A study of Homo sapiens with 8 samples.

Results

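The stage dependence of the ethanol effect is the change with 20 mM ethanol in embryoid bodies minus the change with 20 mM ethanol in undifferentiated human embryonic stem cells, taken gene by gene on the log2 scale. A positive difference means that the signal moved further upward, or less far downward, in embryoid bodies than in undifferentiated cells. The difference uses all 8 of the 8 expression arrays, 2 in each of 4 groups. Undifferentiated cells without ethanol, undifferentiated cells in 20 mM ethanol, embryoid bodies without ethanol and embryoid bodies in 20 mM ethanol made up these groups, and the exposure lasted 24 h. No other genetic change or agent is named for any group. Per the labels all cells were of the established embryonic stem cell line H9, grown in mTeSR medium. Of the 54675 probe sets, 41091 named a single gene, which gave 19775 genes a probe set of their own, and 14071 of them were bright enough to be tested. The labels do not say whether the 2 arrays of a group came from separate cultures, so each p-value measures the spread between these arrays alone, which may be technical.

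Before the results, 1 finding on the arrays needs stating. Genes that check a cell line's identity showed that 4 of the 8 arrays did not match the named line H9, and all 4 belonged to 1 of the 2 stages. Stage and cell line therefore cannot be told apart, in the whole set of results that follows. Leaving those 4 arrays out removes 1 stage altogether, so the difference has no value without them. Each stage's own ethanol change compares arrays of 1 stage, and signals of both stages are given for most genes described array by array. For other genes the signals of 1 stage or the difference alone are printed in places.

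Human embryonic stem cells keep themselves pluripotent through a network of transcription factors, among them SOX2 and NANOG. When they are aggregated into embryoid bodies, that network weakens and cells of the germ layers and of extraembryonic tissues appear side by side. Ethanol enters cells freely, is oxidised by alcohol and aldehyde dehydrogenases, and is a known teratogen. Retinoic acid, a signal that patterns the embryo, is made by enzymes of the same dehydrogenase families. A difference between stages asks whether the same exposure went with another change in expression once the cells had begun to differentiate.

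NANOG and AFP followed the stage labels, with pluripotency RNA still present in embryoid bodies, but not every marker did. LIN28A and DPPA4 moved as NANOG did, and APOA1, TWIST1 and PAX6 as AFP did. SOX2 averaged 17378 in both stages without ethanol, and TUBB3 and ACTC1 were nearly level. Without ethanol KDR (2291 against 1445) and KRT7 (324 against 153) were higher in undifferentiated cells than in embryoid bodies. NANOG had group mean signals of 8128 (0 mM) and 8318 (20 mM) before differentiation and of 4624 and 3715 after it, above the array median throughout. AFP, the fetal albumin homologue of yolk sac and liver, averaged 164 without and 200 with ethanol before differentiation, against 6095 and 9661 in the embryoid bodies. Of the markers of other lineages, MYH6 of heart muscle, CDH5 of endothelium, and CGA, GCM1 and HSD3B1 of trophoblast lay under the array median on all 8 arrays. Array medians were 69.2 to 79.4 in undifferentiated cells, 85.1 on both embryoid body arrays without ethanol and 102 on both with ethanol, on arrays that share a trimmed mean near 500. The median thus moved with ethanol in embryoid bodies, and its part in the differences below was not tested.

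Ethanol changes were larger in embryoid bodies than in undifferentiated cells when each is set against its replicates. Across tested genes, the median absolute log2 change was 0.10 in undifferentiated cells and 0.17 in embryoid bodies. Pairs of embryoid body arrays of the same dose differed by a median of 0.10 on the log2 scale, and pairs of different dose by 0.17 to 0.20. In undifferentiated cells the replicate pairs differed by 0.13 and 0.17 and all pairs of different dose by 0.13, so the doses stood no further apart than the replicates. The changes of the stages, which share no array, correlated weakly across the 14071 genes, with a Pearson r of 0.15 and a Spearman rho of 0.14. Genes are not independent replicates, and these values are descriptions.

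No gene passed the test for a difference between the stages. limma's moderated test with Benjamini-Hochberg adjustment called 0 of 14071 genes (0%) at an adjusted p under 0.05, and the smallest adjusted p was 0.122. At an unadjusted p under 0.05 there were 1829 genes (13%), against 704 that the threshold alone would give on average. Of these, 966 (6.87%) had a positive and 863 (6.13%) a negative difference. In the same fit, 10 genes (0.0711%) were called for ethanol in embryoid bodies and 1 gene (0.00711%) in undifferentiated cells, but a call in a single stage is no test that the stages differ. These numbers depended on single arrays: without replicate A of undifferentiated cells in 0 mM the difference had 9 calls, without replicate B of undifferentiated cells in 20 mM it had 10, and without replicate B of embryoid bodies in 20 mM the genes at an unadjusted p under 0.05 dropped to 1179. A filter at the 75th percentile of each array gave 13 calls and a trended, robust variance 31. The 10 calls within embryoid bodies became 2 without a filter, 477 with this filter and 958 with that variance. They became 0 with a term for the replicate letter and 3879 with median centring, so a call within that stage depended on the setting. Centring every array on its median, which moved the median difference of all genes from -0.017 to -0.15, turned the share of positive differences among genes at an unadjusted p under 0.05 from 52.8% to 17.5%.

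Most of the genes at an unadjusted p under 0.05 had the larger of their changes in the embryoid bodies. A gene was described as mainly of 1 stage when its change there was at least 2 times that in the other stage. Among the 966 positive differences, 65% were mainly of embryoid bodies, 8.7% mainly of undifferentiated cells, and 26.2% had opposed changes of like size. The 863 negative differences divided into 62.9%, 14.9% and 21.7% in that order. Over all 14071 tested genes the shares were 46%, 20.7% and 14.5%, and a further 18.8% changed in the same direction by like amounts. A small p favours unlike changes by construction, so these shares describe the genes and were not tested. The plot of both ethanol changes shows where the named genes lie.

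**Figure D1:**
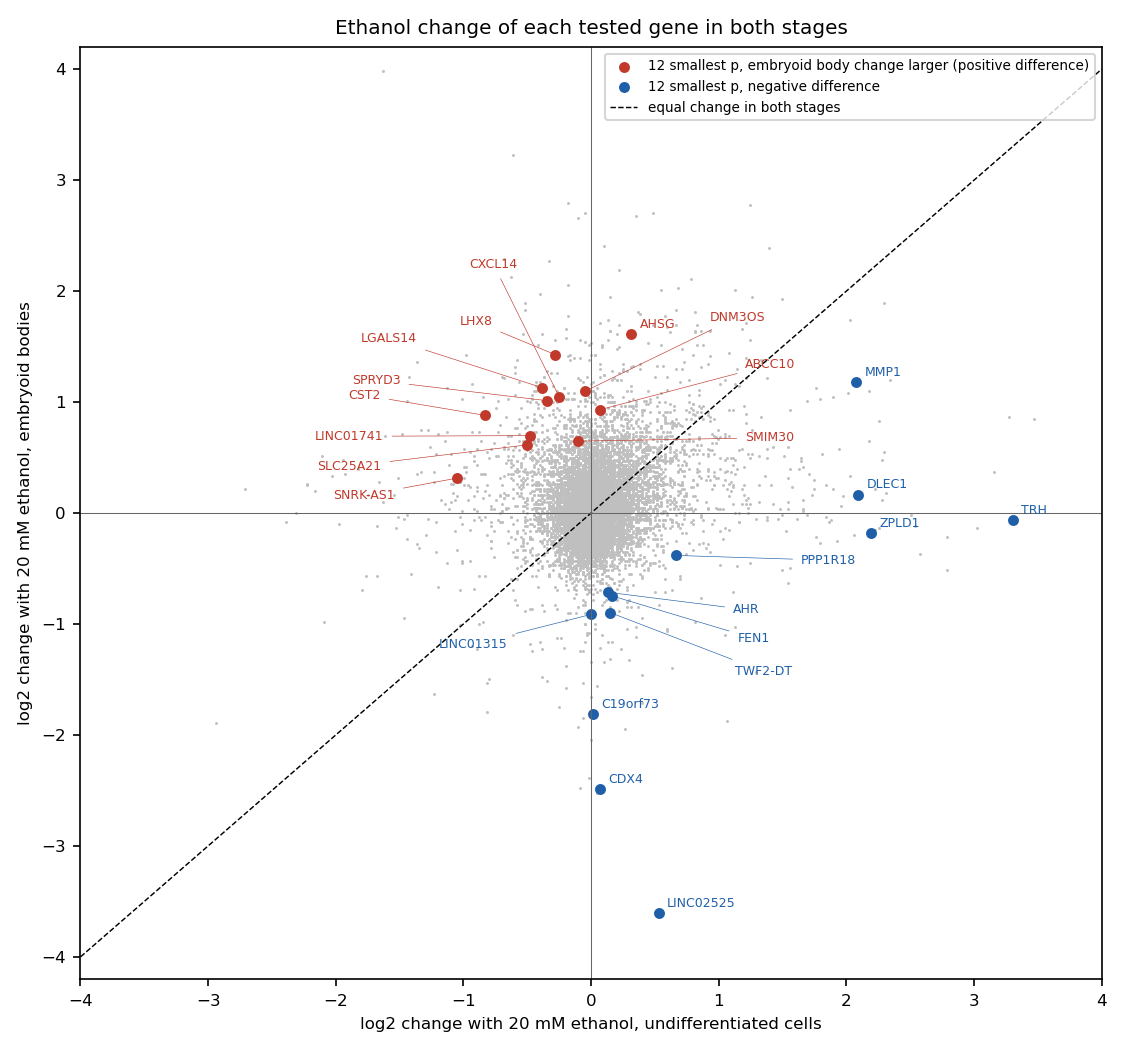
Each grey point is 1 of 14071 tested genes, with the log2 change with 20 mM ethanol in undifferentiated cells on the x axis and in embryoid bodies on the y axis, and the dashed line marks equal changes. The 12 positive differences with the smallest p-values (red) lie above the line, mostly near x = 0, and the 12 negative ones (blue) lie below it, including TRH, ZPLD1 and DLEC1 far to the right.

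The 12 positive differences with the smallest p-values included a plasma protein, a homeobox factor, a mesodermal noncoding RNA and a chemokine, each higher in embryoid bodies with ethanol. In 8 of these 12 genes the change was mainly in embryoid bodies, in 3 the stages opposed each other, and in 1, SNRK-AS1, it was mainly in undifferentiated cells. None was called for the difference. AHSG, which encodes fetuin-A, a plasma glycoprotein of fetal liver and yolk sac, had signals of 50.1 and 50.1 in undifferentiated cells without ethanol and of 63.1 and 61.7 with it. In embryoid bodies AHSG read 219 and 234 without ethanol and 676 and 708 with it. The doses did not overlap in either stage, and the embryoid body arrays with ethanol stood far above the rest. All undifferentiated signals lay under their array medians, and the gene passed the filter through the 4 embryoid body arrays alone. Its log2 change was 1.61 ± 0.071 (SE) in embryoid bodies, where it passed limma's test (adjusted p = 0.00952), and 0.32 ± 0.071 in undifferentiated cells. The difference was 1.30 ± 0.10 with an adjusted p of 0.122. A dimmer probe set of AHSG gave 2.34, made of 1.81 in embryoid bodies and -0.53 in undifferentiated cells, so the undifferentiated direction depended on the probe set. As in every bulk measurement, more cells of a type and more RNA per cell cannot be told apart.

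DNM3OS, a noncoding RNA of mesoderm that carries microRNA precursors, was at 11.5 and 11.7 in undifferentiated cells without ethanol and at 11 and 11.5 with it, far below the array medians. Embryoid bodies gave 331 and 363 without and 759 and 724 with ethanol. The low stage showed no separation of the doses, while the embryoid bodies were more than doubled, by 1.10 ± 0.078 on the log2 scale. The difference for DNM3OS was 1.15 ± 0.11 (adjusted p = 0.122), and its dimmer second probe set gave 1.01.

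LHX8 encodes a LIM homeobox factor of the ventral forebrain and of oocytes. Signals were 74.1 and 72.4 in undifferentiated cells at 0 mM, 53.7 and 67.6 at 20 mM, 191 and 174 in embryoid bodies at 0 mM, and 479 and 501 at 20 mM. The doses separated downward in undifferentiated cells, near the array median, and upward in embryoid bodies. The LHX8 difference was 1.71 ± 0.17 (adjusted p = 0.122).

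CST2, a secreted cysteine protease inhibitor, moved in opposite directions in the stages. Its signals were 234 and 234 in undifferentiated cells without ethanol, 141 and 123 with it, 3020 and 3311 in embryoid bodies without ethanol, and 6310 and 5370 with it. No doses overlapped, and the difference of 1.71 ± 0.16 was made of -0.83 in undifferentiated cells and 0.88 in embryoid bodies. Its probe set is of a kind that can bind transcripts of related genes, here the other cystatins, so the assignment to CST2 is uncertain.

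CXCL14, a chemokine of epithelia and mesenchyme, read 186 and 174 in undifferentiated cells at 0 mM, 151 and 151 at 20 mM, 617 and 759 in embryoid bodies at 0 mM and 1445 and 1380 at 20 mM. The difference of 1.30 ± 0.16 belonged to the brightest of its 3 probe sets. Another probe set gave 0.61 and a dim one -1.73, and the mean over all of them was 0.061. ABCC10, an efflux transporter, was level in undifferentiated cells, at 603 and 631 without and 646 and 646 with ethanol, and higher in embryoid bodies with ethanol, at 2042 and 2188 against 1122 and 1096. The ABCC10 difference of 0.86 ± 0.10 was not shared by its dimmer second probe set, which gave 0.066.

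A further 3 genes were brighter in undifferentiated cells, yet higher with ethanol in embryoid bodies. SLC25A21, a mitochondrial carrier of oxodicarboxylates, had 457 and 490 in undifferentiated cells at 0 mM, 347 and 324 at 20 mM, 170 and 155 in embryoid bodies at 0 mM and 257 and 240 at 20 mM, a difference of 1.11 ± 0.12. SMIM30, which encodes a small membrane protein, went from 603 and 575 to 912 and 933 in embryoid bodies while undifferentiated cells stayed between 1413 and 1549. LGALS14, a galectin known from placenta, read 25.1 and 29.5 without and 63.1 and 56.2 with ethanol in embryoid bodies, all under the array median. In undifferentiated cells it read 170 and 158 without and 126 and 126 with ethanol, and only those arrays took it past the filter. The remaining differences of this kind were SNRK-AS1 and SPRYD3 at 1.36 each and LINC01741 at 1.18, all from signals of at most 204.

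Among the 12 negative differences with the smallest p-values, 7 were mainly of embryoid bodies, where the signal was lower with ethanol, and 3 were mainly of undifferentiated cells, where a very dim signal was higher. PPP1R18 had opposed changes and MMP1 changes of the same sign. AHR encodes the aryl hydrocarbon receptor, a transcription factor that responds to foreign aromatic compounds. Its signals were 200 and 191 in undifferentiated cells at 0 mM, 214 and 214 at 20 mM, 407 and 447 in embryoid bodies at 0 mM and 269 and 251 at 20 mM. The lower level with ethanol was seen on both embryoid body arrays, and the undifferentiated doses lay slightly the other way. The AHR difference was -0.85 ± 0.11 (adjusted p = 0.205), and it ranged from -0.98 to -0.77 over the 20 alternatives that tested it.

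FEN1, the flap endonuclease that trims Okazaki fragments during DNA replication, was the brightest gene of these 12. It read 4467 and 4365 in undifferentiated cells at 0 mM, 5248 and 4677 at 20 mM, 6457 and 5754 in embryoid bodies at 0 mM and 3548 and 3715 at 20 mM. Embryoid bodies in ethanol were the lowest of the 4 groups. The difference was -0.91 ± 0.13 (adjusted p = 0.21) on this probe set and -0.22 on a second, dimmer one.

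LINC01315, a long noncoding RNA, stood at 1549 and 1622 in undifferentiated cells without ethanol and at 1585 and 1585 with it. Embryoid bodies fell from 912 and 851 to 447 and 490, a change of -0.91 ± 0.080 that narrowly passed limma's test within that stage (adjusted p = 0.0488). Undifferentiated cells did not separate by dose. The difference was again -0.91, with an SE of 0.11 and an adjusted p of 0.187.

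PPP1R18, whose protein binds phosphatase 1 and actin, showed the clearest crossing of these negative differences. Undifferentiated cells read 389 and 380 at 0 mM and 631 and 589 at 20 mM, and embryoid bodies 912 and 912 at 0 mM and 708 and 692 at 20 mM. The doses were apart in both stages in opposite directions, and the difference was -1.05 ± 0.10 (adjusted p = 0.122).

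Several of these negative differences rested on embryoid body signals that lay below the array median with ethanol. CDX4, a caudal homeobox factor that acts upstream of HOX genes, read 135, 151, 126 and 178 on the undifferentiated arrays, with no order by dose. In embryoid bodies CDX4 read 85.1 and 64.6 without ethanol and 14.5 and 12 with it, a difference of -2.56 ± 0.31. LINC02525 read 83.2 and 93.3 without and 9.55 and 5.5 with ethanol in embryoid bodies, the largest negative difference named here at -4.14 ± 0.38. Its undifferentiated signals were 69.2 and 85.1 without and 102 and 120 with ethanol. C19orf73, at 43.7 and 49 against 15.5 and 11.2 in embryoid bodies, and TWF2-DT, at 129 and 132 against 67.6 and 72.4, had -1.83 ± 0.27 and -1.05 ± 0.14. In undifferentiated cells C19orf73 read 123 and 105 against 105 and 126, and TWF2-DT 70.8 and 81.3 against 79.4 and 89.1. Near the floor of an array such folds depend on the scale: with 32 added to each signal before the logarithm, CDX4 gave -1.29 and the LINC02525 value also shrank.

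The 3 negative differences that came mainly from undifferentiated cells also rested on signals below the array median, here those of undifferentiated cells. TRH, the precursor of thyrotropin-releasing hormone, read 8.32 and 3.98 in undifferentiated cells at 0 mM and 64.6 and 50.1 at 20 mM, while embryoid bodies stayed between 224 and 269. ZPLD1 and DLEC1 had the same form, with undifferentiated signals of at most 44.7. MMP1, the interstitial collagenase, was higher with ethanol in both stages: 2.88 and 3.09 against 12.9 and 12.3 in undifferentiated cells, and 214 and 195 against 490 and 437 in embryoid bodies. Its difference of -0.90 ± 0.13 became 0.72 when 32 was added to each signal, so its direction rested on signals far under the array median.

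**Figure D2:**
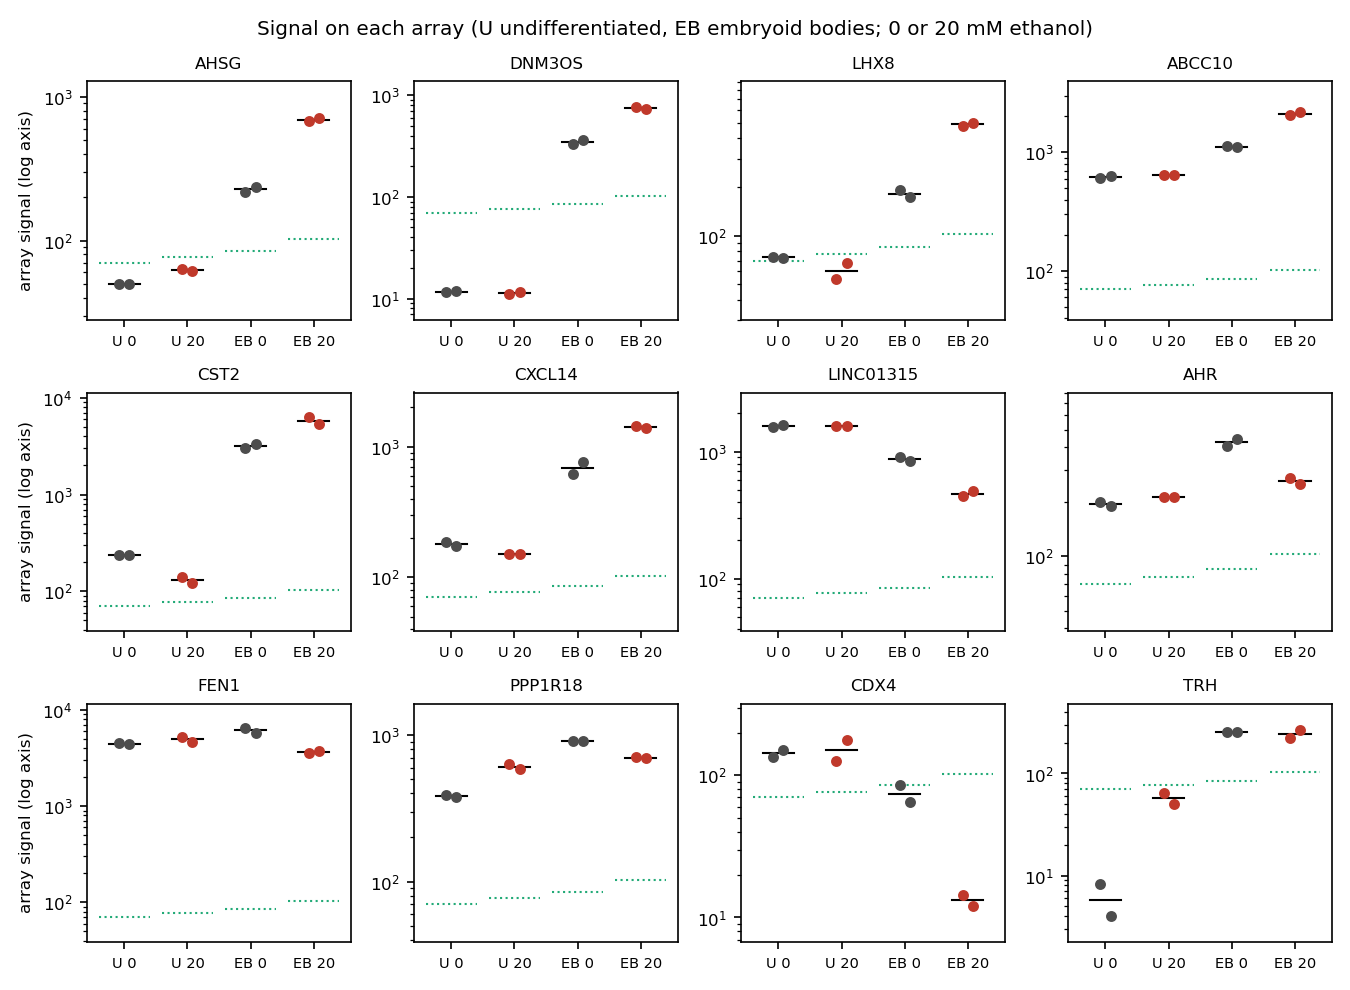
Signal on each of the 8 arrays (log axis, 1 panel per gene) for 12 of the genes with the smallest p-values, with black bars at the group means of the log signals and dotted lines at the array medians. AHSG, DNM3OS, LHX8 and ABCC10 separate by dose most widely in embryoid bodies, PPP1R18 and CST2 separate in opposite directions, and the TRH signals of undifferentiated cells lie under the dotted line.

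**Figure D3:**
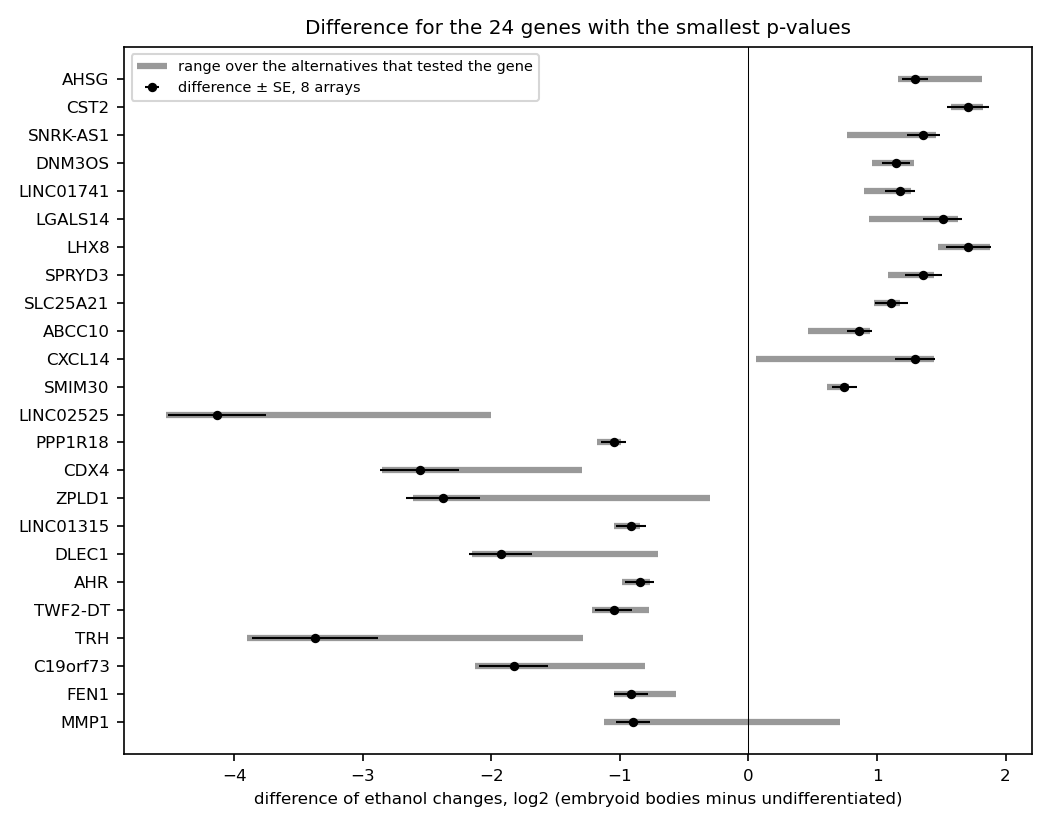
Difference of the ethanol changes (log2, x axis) for the 24 genes with the smallest p-values, as the value with its standard error (black) and the range over the alternatives that tested the gene (grey). The range of MMP1 crosses 0, that of CXCL14 reaches down to 0.061, and those of PPP1R18, AHR and SMIM30 are narrow.

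The promoters of 4 of these genes are shown, a pair in each direction. They belong to the genes of a plasma protein, a homeobox factor, a receptor of foreign compounds and a replication enzyme. Each is the stretch of 250 bases before the RefSeq start of the gene on GRCh38.p14, 5′ to 3′. Capitals mark matches, on either strand, to any of 7 motifs searched. These were the core promoter box TATAAA, the box CCAAT that the factor NF-Y binds, and GCGTG, the core of the element that the aryl hydrocarbon receptor binds. The others were TGACTCA for the factor AP-1, AGATAA for zinc finger factors of the type named after their own core motif, GTAAACA for forkhead factors, and the E-box CACGTG.
AHSG promoter, chr3:186612810-186613059, plus strand: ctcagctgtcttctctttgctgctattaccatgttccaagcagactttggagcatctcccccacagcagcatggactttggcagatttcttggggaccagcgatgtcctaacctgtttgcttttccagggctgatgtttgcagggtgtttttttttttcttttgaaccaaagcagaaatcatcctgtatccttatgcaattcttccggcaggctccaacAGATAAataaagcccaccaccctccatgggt
LHX8 promoter, chr1:75128184-75128433, plus strand: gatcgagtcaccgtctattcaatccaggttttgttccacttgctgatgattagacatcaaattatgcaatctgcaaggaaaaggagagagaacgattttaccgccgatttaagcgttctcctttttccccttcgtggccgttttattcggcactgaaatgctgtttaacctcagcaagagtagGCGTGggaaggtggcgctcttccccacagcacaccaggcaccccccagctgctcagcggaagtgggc
AHR promoter, chr7:17298402-17298651, plus strand: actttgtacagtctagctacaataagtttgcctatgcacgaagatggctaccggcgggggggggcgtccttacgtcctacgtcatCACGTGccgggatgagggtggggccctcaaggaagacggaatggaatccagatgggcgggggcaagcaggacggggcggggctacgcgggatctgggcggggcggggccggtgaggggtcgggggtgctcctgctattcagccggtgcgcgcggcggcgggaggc
FEN1 promoter, chr11:61792661-61792910, plus strand: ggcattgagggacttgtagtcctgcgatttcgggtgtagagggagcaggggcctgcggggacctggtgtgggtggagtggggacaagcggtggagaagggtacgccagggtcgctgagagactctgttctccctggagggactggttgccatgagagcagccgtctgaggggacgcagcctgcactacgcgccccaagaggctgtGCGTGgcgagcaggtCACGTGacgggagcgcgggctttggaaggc
Sequences of 10 of the 12 positive and 10 of the 12 negative genes were found among 35116 RefSeq promoters. AGATAA occurred in 3 of the 10 positive promoters (AHSG, LINC01741 and LGALS14) and 0 of the 10 negative ones, against 9.17% of all promoters. CACGTG occurred in AHR and FEN1 and in 0 of the 10 positive promoters, against 6.34% of all. GCGTG was found in 4 of 10 and 5 of 10, with 32.2% of all, and no motif of the 7 contains another on either strand, though neighbouring matches may share end letters. Median GC content was 51% in the positive and 68.6% in the negative promoters, but it was 64.8% in both sets of genes at an unadjusted p under 0.05 and in all tested genes with a promoter. A match is a description of letters and not a site, and its relation to the differences was not tested.

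Genes whose doses were separate in both stages, in opposite directions, formed a small share of those measured. Among 12146 genes with a mean above the median in each stage, 381 (3.14%) were higher with ethanol on both embryoid body arrays and lower on both undifferentiated arrays, and 404 (3.33%) showed the reverse. Moving upward in both stages were 576 (4.74%) and downward in both 529 (4.36%). With so few arrays per group, a random order of the arrays alone also gives genes with separate and opposed doses. The share it would give was not computed. Whether the counts of opposed genes exceed it was not tested, so these shares are descriptions and do not set such genes apart as a class. By the size of the smaller change, genes among the leading ones higher in embryoid bodies were RBM46, CST2, KDM8 and CRMA, and those lower in embryoid bodies CSMD2, DYRK4, ZMAT4, TRAF3 and DHRS2. These genes were picked for separate and opposed doses, so their separation is no further result.

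DYRK4, a dual-specificity kinase, read 182 and 174 against 275 and 257 in undifferentiated cells. In embryoid bodies it read 427 and 372 against 251 and 316, a difference of -1.08 ± 0.19. TRAF3, an adaptor of receptors of the tumour necrosis factor family, read 427 and 380 against 589 and 575 in undifferentiated cells and 1230 and 1230 against 1047 and 741 in embryoid bodies. Its difference was -1.01 ± 0.24, while another TRAF3 probe set gave 0.40, so the direction depended on the probe set. The other members ranged from 1.23 to 1.71 and from -1.79 to -0.95, with adjusted p-values of up to 0.404.

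The differences varied with brightness, a pattern whose part in the results was not tested. In the dimmest decile of tested genes (mean signal 15.4 to 89.6), the median difference was 0.17 and the median change in embryoid bodies 0.33. In the brightest decile (4193 to 35480) both medians were -0.10. Genes at an unadjusted p under 0.05 numbered 132 positive and 68 negative in the dimmest decile and 42 positive and 136 negative in the brightest. The median SE narrowed from 0.51 to 0.12 along the way. A difference of at least 1 on the log2 scale was found in 515 genes, 337 positive (2.39%) and 178 negative (1.27%). Of the 8217 tested genes with a mean above the 75th percentile of all probe sets, a signal of about 457, only 14 had one, 9 of them positive. Among all tested genes, 370 passed the filter on just 2 arrays, and such genes had to be higher there than elsewhere.

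**Figure D4:**
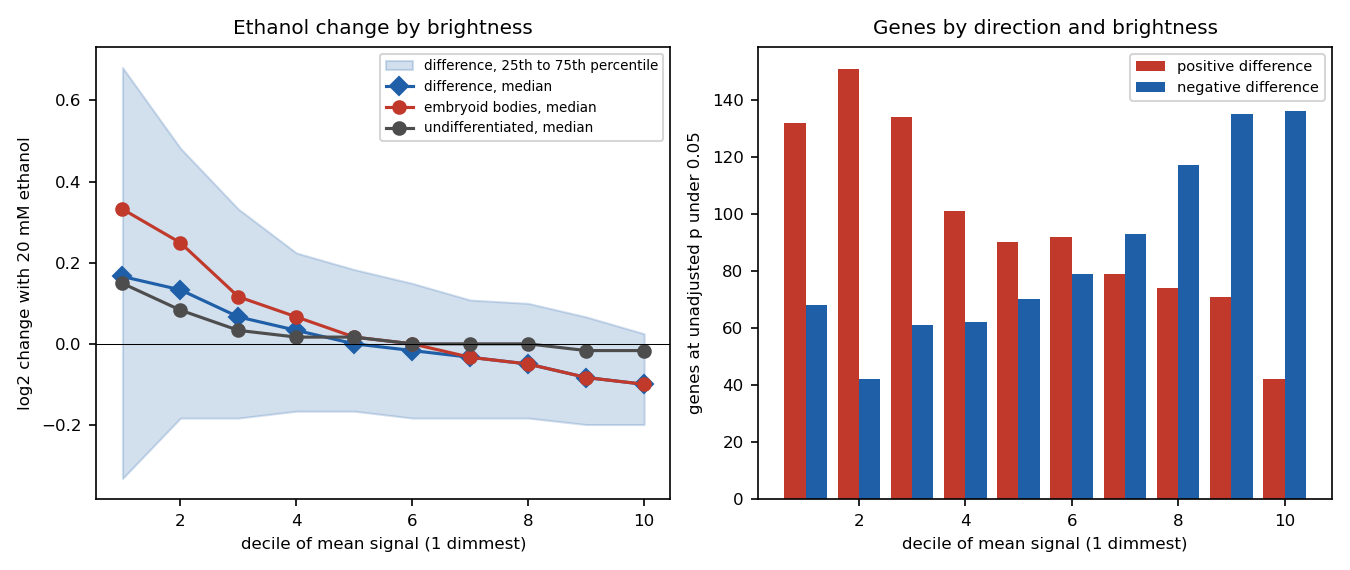
Left, median log2 change with ethanol (y axis) by decile of mean signal (x axis, 1 dimmest) for each stage and for their difference, with the 25th to 75th percentile of the difference shaded; right, the number of genes at an unadjusted p under 0.05 in each decile. The medians pass from above to below 0 near the middle deciles, and negative differences outnumber positive ones among the bright genes.

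This order matters for the gene lists, whose members differ in brightness, so the lists are given beside the decile of all genes that holds their median signal. No member of the 40 lists was called for the difference, and no list was tested as a set. Over all tested genes the median difference was -0.017, with 46.6% of differences above and 50.8% below 0.

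Genes of core pluripotency had negative differences almost throughout. All 22 members with a probe set were tested, and 21 had a negative and 1 a positive value. An unadjusted p under 0.05 was found for 6 negative and 0 positive values (6.13% and 6.87% over all genes tested). In the brightest decile, 136 negative and 42 positive values of 1407 had such a p. The 75th percentile of its differences was 0.025, so negative values prevailed there too. The median difference was -0.20, made of -0.18 in embryoid bodies and 0.025 in undifferentiated cells, against -0.10 in the brightest decile, where the list's median signal lies. SOX2, a factor of the central network, read 18197 and 16596 in undifferentiated cells at 0 mM, 19498 and 18621 at 20 mM, 17783 and 16982 in embryoid bodies at 0 mM and 14454 and 12882 at 20 mM. Embryoid bodies in ethanol were thus the lowest group, and the difference was -0.48 ± 0.13 (adjusted p = 0.297). Dimmer SOX2 probe sets above the median on all arrays gave -0.40 and -0.083, and the dimmest one gave 0.48. NANOG, a homeobox factor of the same network, had -0.35 ± 0.10. PRDM14, a repressor that guards the pluripotent state, read 1445 and 1514 against 1778 and 1445 in undifferentiated cells and 1349 and 1349 against 851 and 891 in embryoid bodies, so the doses separated in embryoid bodies alone. Its difference was -0.75 ± 0.16, and that of USP44, a deubiquitinase that is high in stem cells, -0.48 ± 0.10. The list's median stayed between -0.33 and -0.11 in 21 of 21 alternatives.

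Matrix and mesoderm genes lay on the other side. Of 30 genes of mesenchymal matrix, all tested, 23 had positive and 7 negative differences, with 10 positive and 0 negative at an unadjusted p under 0.05. The median was 0.27 (0.47 in embryoid bodies and 0.12 in undifferentiated cells), against -0.017 in the decile of like brightness. COL14A1, a collagen that associates with fibrils, read 245 and 269 against 251 and 245 in undifferentiated cells and 195 and 195 against 339 and 309 in embryoid bodies. The undifferentiated doses overlapped and the embryoid body doses did not, and the difference was 0.78 ± 0.12 (adjusted p = 0.21). COL3A1, a main fibrillar collagen, had embryoid body signals of 8710 and 9120 at 0 mM and 17378 and 16982 at 20 mM, and undifferentiated signals of 186 and 186 at 0 mM and 100 and 195 at 20 mM. Its difference of 1.36 ± 0.41 thus leaned partly on 1 low undifferentiated array. LOX, which cross-links collagen, had 1.26 ± 0.33, the adhesion protein THBS1 0.81 ± 0.21, the small proteoglycan LUM 0.81 ± 0.22, POSTN 0.75 ± 0.20 and COL6A2 0.60 ± 0.13. In embryoid bodies the log2 change was 1.23 for LOX, 0.73 for THBS1, 0.95 for LUM, 0.90 for POSTN and 0.45 for COL6A2. Dimmer probe sets above the median on all arrays gave 0.45 for COL14A1, 0.23 for THBS1 and 0.32 for COL6A2. The median was positive in 21 of 21 alternatives, from 0.13 to 0.44.

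The mesoderm list had 14 positive and 2 negative differences among 16 tested genes, with 5 positive and 1 negative at an unadjusted p under 0.05 and a median of 0.27 (0.066 in the decile of like brightness). SNAI2, a repressor of epithelial genes, read 145 and 112 against 87.1 and 105 in undifferentiated cells and 1072 and 1122 against 1445 and 1445 in embryoid bodies, a difference of 0.81 ± 0.21. TWIST1 and PDGFRA, a factor and a growth factor receptor of mesenchyme, had 0.80 ± 0.29 and 0.56 ± 0.19. MEOX1, a homeobox factor of somites, went against them at -2.39 ± 0.82, from undifferentiated signals of at most 47.9. The list's median ran from 0.13 to 0.56 over 21 alternatives.

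Proteases that cut the matrix showed a smaller shift. Among 15 tested matrix metalloproteinases and inhibitors, 12 differences were positive, and 3 positive and 1 negative, MMP1, had an unadjusted p under 0.05. The median was 0.22, against 0.033 in the decile of like brightness. MMP2, a gelatinase, read 1047 and 1023 against 776 and 1000 in undifferentiated cells and 2455 and 2512 against 3311 and 3311 in embryoid bodies, a difference of 0.65 ± 0.18. Its membrane activator MMP14 had 0.70 ± 0.21 and MMP15 0.42 ± 0.12, both with signals that were lower with ethanol in undifferentiated cells.

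Endoderm and fetal plasma protein genes had the highest median among lists of at least 20 tested genes, 0.43, against 0.066 in the decile of like brightness. Of 22 tested, 17 were positive and 5 negative, and 3 positive ones, AHSG, FGG and FGB, had an unadjusted p under 0.05. FGB and FGG encode fibrinogen chains. FGB read 1660 and 1660 in embryoid bodies at 0 mM and 3467 and 3631 at 20 mM, and between 9.55 and 24.5 in undifferentiated cells, and its difference was 1.54 ± 0.60. A second FGB probe set of similar brightness gave 0.066, with higher signals in ethanol in both stages. FGG had 1.91 ± 0.58, also from undifferentiated signals of at most 40.7. The list's median lay between 0.25 and 0.78 over 21 alternatives. Its mean difference was 0.61 ± 0.36, where the SE measures the spread of the list mean between replicate arrays. For mesenchymal matrix that mean was 0.36 ± 0.049, so the higher endoderm value was the less precise.

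The HOX family, homeobox factors that set position along the body axis, had the highest median of the 40 lists, 0.61, but only 10 of 23 with a probe set were tested and 0 had an unadjusted p under 0.05. Their median signal of 72.9 put them in the dimmest decile, where the median difference was 0.17. The median ran from 0.18 without _x_at and _s_at probe sets, below the lowest value of the endoderm list, to 0.98 without replicate A of undifferentiated cells in 20 mM, so the rank depended on the setting. With the filter at the 75th percentile fewer than 3 remained, so no median was taken. The mean difference of the HOX list was 0.35 ± 0.26, with the SE taken between replicate arrays.

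The retinoic acid list, which shares enzyme families with ethanol breakdown, had 11 positive and 5 negative differences among 17 tested genes, with 5 positive and 0 negative at an unadjusted p under 0.05. Its median was 0.43, against 0.033 in the decile of like brightness, and ranged from 0.050 to 0.48. The mean difference of this list was 0.44 ± 0.28, with the SE taken between replicate arrays. RDH10, which oxidises retinol to retinal, read 447 and 447 against 398 and 437 in undifferentiated cells and 912 and 1023 against 1380 and 1413 in embryoid bodies. The doses separated in both stages in opposite directions, and the difference was 0.63 ± 0.12 (adjusted p = 0.245), or 0.38 on a second RDH10 probe set. ALDH1A2 and ALDH1A3, which make retinoic acid from retinal, had 1.86 ± 0.54 and 0.43 ± 0.15, the first from undifferentiated signals of at most 28.8. RARB, a receptor and itself a target of retinoic acid, had 0.95 ± 0.25, with 123 and 102 against 75.9 and 75.9 in undifferentiated cells and 186 and 229 against 234 and 309 in embryoid bodies. TGM2, a transglutaminase that responds to retinoic acid, had 1.15 ± 0.27. Its embryoid body signals were 60.3 and 64.6 without ethanol, under the array median, and 145 and 151 with it. The 5 negative members of the list, which reached down to -0.73, are not named here, so the named genes show its positive side alone.

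Genes of ethanol breakdown itself did not share a direction: among 19 tested alcohol and aldehyde dehydrogenases, 10 differences were positive and 9 negative, with a median of 0.050 against 0 in the decile of like brightness. ADH5, the ubiquitous class of alcohol dehydrogenase, read 9772 and 8913 against 9772 and 9772 in undifferentiated cells and 9120 and 8913 against 7244 and 6607 in embryoid bodies. The doses separated in embryoid bodies alone, with a difference of -0.45 ± 0.12 (adjusted p = 0.295), while a second bright probe set of ADH5 gave -0.083. ALDH2, the mitochondrial enzyme that clears acetaldehyde, had -0.083 ± 0.14 and CAT, the peroxisomal catalase that can also oxidise ethanol, -0.12 ± 0.47. The sign of neither held across all alternatives. ALDH9A1 had -0.37 ± 0.11.

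Signalling lists had medians on both sides of 0. For nodal and TGF-beta signalling, 14 of 21 tested genes were positive, 4 positive and 1 negative had an unadjusted p under 0.05, and the median was 0.15, against 0 in the decile of like brightness. TGFBI, a matrix protein induced by TGF-beta, read 692 and 692 against 724 and 646 in undifferentiated cells and 3020 and 2818 against 4786 and 4677 in embryoid bodies, a difference of 0.71 ± 0.12. The ligand TGFB2 had 0.91 ± 0.21 on its brightest probe set and -0.27 on its most variable one, and the coreceptor TGFBR3 0.38 ± 0.10. In the WNT pathway 17 of 29 were positive, 5 of them and 1 negative at an unadjusted p under 0.05, with a median of 0.12 against -0.033 in the decile of like brightness. That median kept its sign in 19 of 21 alternatives and fell to -0.025 with the probe set of highest SD. The list mean was 0.18 ± 0.14. Positive members included the ligand WNT5A at 0.63 ± 0.22, with 182 and 191 against 219 and 186 in undifferentiated cells and 1445 and 1660 against 2291 and 2951 in embryoid bodies. The list member DKK3 had 0.45 ± 0.16, and the receptor FZD1 0.78 ± 0.19, a value that was -0.12 over the mean of its probe sets. BMP, Notch and hedgehog genes had medians of -0.083, -0.066 and -0.20, each of which crossed 0 in at least 1 alternative. Their deciles had -0.017, -0.017 and 0.033. Notch genes had 0 members at an unadjusted p under 0.05. IGFBP3, a secreted binder of insulin-like growth factors listed with trophoblast and amnion, read 302 and 339 against 309 and 355 in undifferentiated cells and 631 and 603 against 1288 and 1413 in embryoid bodies, a difference of 1.08 ± 0.15 (adjusted p = 0.21). No doses overlapped in embryoid bodies, and those of undifferentiated cells did. A dimmer IGFBP3 probe set gave 0.47.

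Neural lists had no common direction. The neuroectoderm list held 9 positive and 14 negative differences among 23 tested. LHX8 and FABP7 (0.47 ± 0.093) were among the positive and POU3F2 (-0.90 ± 0.21) among the negative members. FABP7, a fatty acid binding protein of radial glia, was lower with ethanol in undifferentiated cells (2239 and 2344 against 1950 and 1950) and higher in embryoid bodies (2630 and 2692 against 3090 and 3162). POU3F2, a factor of neural progenitors, lay the other way from undifferentiated signals near the array median. Medians of the neuroectoderm and neuron lists were -0.083 and 0.017, and their deciles had 0.033 and -0.017.

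Housekeeping lists lay slightly below 0, with the bright genes. Of 29 tested cytosolic ribosomal protein genes 28 were negative and 1 positive, with 2 negative at an unadjusted p under 0.05 and a median of -0.23, against -0.10 in the brightest decile. Quantile normalisation brought that median to -0.046. Oxidative phosphorylation had 23 negative and 4 positive of 28 and a median of -0.12, close to the -0.10 of the brightest decile. NRF2 antioxidant genes had 14 negative and 8 positive of 23, and 4 negative at an unadjusted p under 0.05, with a median of -0.12. For this list and for the heat shock and DNA methylation lists the decile of like brightness had -0.083. TKT and TALDO1, enzymes of the pentose phosphate pathway, had -0.43 ± 0.12 (-0.18 on another bright TKT probe set) and -0.38 ± 0.11, and TALDO1 read 10233 and 9772 against 10471 and 9550 in undifferentiated cells and 6457 and 6457 against 5012 and 4898 in embryoid bodies. TXNRD1, thioredoxin reductase, had -0.42 ± 0.11, but 0.42 over the mean of its probe sets. Heat shock chaperones had 15 negative and 3 positive of 18, with a median of -0.15 that became 0.033 without _x_at and _s_at probe sets, whose probes can match several transcripts. HSPB1, a small heat shock protein, had -0.40 ± 0.13.

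Chromatin and growth genes were mixed. The 21 tested genes of DNA methylation gave 14 negative and 7 positive differences and a median of -0.13. DNMT3A, a de novo methyltransferase, read 4571 and 4467 against 5370 and 5129 in undifferentiated cells and 4677 and 4571 against 4365 and 4266 in embryoid bodies. The doses were apart in both stages and opposed, with a difference of -0.32 ± 0.094 (adjusted p = 0.315). DNMT3B had -0.25 ± 0.12, the maintenance enzyme DNMT1 -0.066 ± 0.17 and the demethylase TET1 -0.27 ± 0.17, and HELLS, a helicase needed for methylation, had 0.55 ± 0.17. Other HELLS probe sets above the array median gave 0.10, -0.033 and -0.33, and a second DNMT3A probe set -0.15. Of 29 DNA replication genes 13 were positive and 16 negative, with a median of -0.050, and FEN1 had the lowest value of that list. Mitosis genes, 11 positive and 16 negative of 27, had a median of -0.033. PLAGL1, an imprinted zinc finger factor, read 178 and 158 against 151 and 155 in undifferentiated cells and 2884 and 2630 against 3715 and 3981 in embryoid bodies, a difference of 0.61 ± 0.13. SESN2, a stress-induced sestrin, had 0.90 ± 0.20 (0.42 on a second probe set), with opposed changes, and its relative SESN1 -0.56 ± 0.16. PSMB9 and PSMB8, the inducible subunits of the immunoproteasome, had -0.70 ± 0.14 and -0.61 ± 0.16. In embryoid bodies PSMB9 lay under the array median on all arrays, at 83.2 and 81.3 without and 57.5 and 58.9 with ethanol. The interferon and inflammatory list that holds both was balanced, with 4 positive and 4 negative at an unadjusted p under 0.05 of 22 tested.

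**Figure D5:**
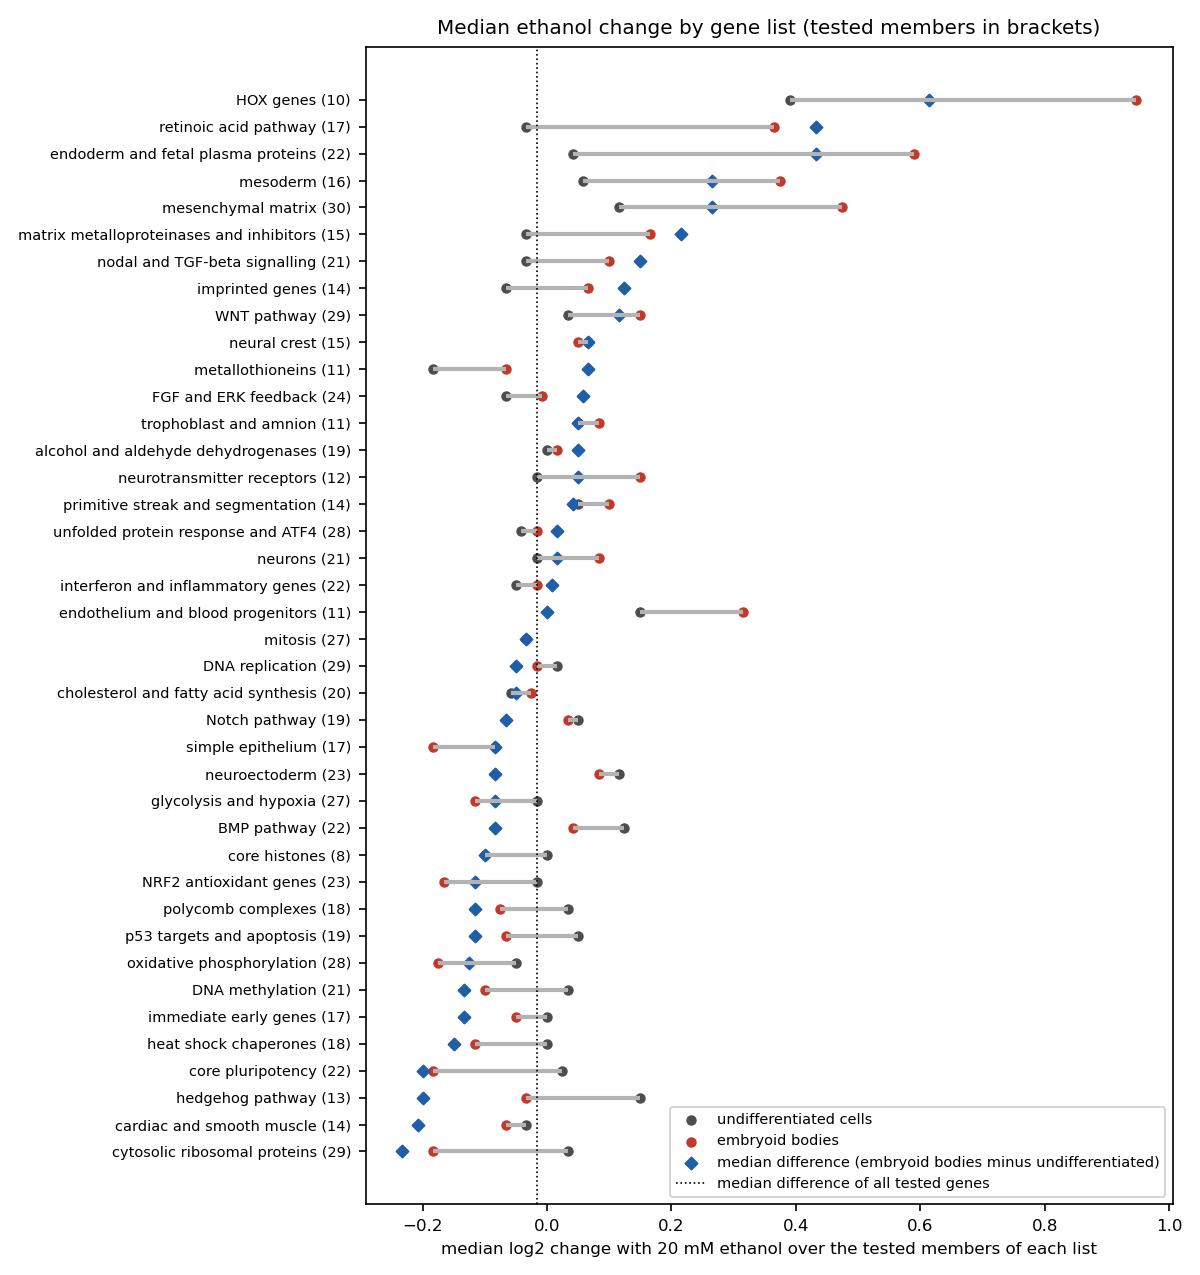
Median log2 change with ethanol (x axis) over the tested members of each of 40 gene lists (y axis, number of tested members in brackets), for undifferentiated cells (grey), embryoid bodies (red) and their difference (blue). HOX, retinoic acid, endoderm, mesoderm and matrix lists lie to the right, from 0.27 to 0.61, and ribosomal, hedgehog, muscle and pluripotency lists to the left of the dotted line at the median of all genes.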

How the data were processed

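RNA of 8 arrays in 4 groups of 2 was analysed. The authors deposited log10 signals, rounded to 0.01 (0.03 on the log2 scale); the submitters' processing notes name RMA, without a version, but values below 0 and a shared trimmed mean near 500 do not have its form, so the summarisation is not settled. The design assumed no scale. Signals were multiplied by the constant that gives log2, with no further normalisation. Probe sets were named from the platform annotation: 1801 named several genes, 11721 none and 62 were controls. Each gene took its probe set with the highest mean, and entered the test if its signal exceeded the array median on 2 or more arrays. limma 3.58.1 in R 4.3.3 fitted 1 mean per group (4 residual and 1.81 prior degrees of freedom), with Benjamini-Hochberg adjustment over 14071 genes and a threshold of 0.05. The fit was tested on simulated data. The number of arrays limits the precision.

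Genes were named by rule: in either direction the 12 differences of smallest p, the 5 most separated opposed genes either way, up to 3 members per list by p and 9 genes always given. A gene that met this rule is not reported here. Other list members described were chosen after their values were seen. The 40 lists hold 931 genes, 835 with a probe set of their own. The members and lists were chosen with earlier results of these data known. Replicate letters did not pair the arrays. Alternatives changed the filter, probe set, normalisation, scale, variance and block, or left out an array.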

Additional observations from a re-analysis of the deposited data

Results flagged for a closer look

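A probe set with no gene name in the annotation, 229612_at, lay outside the comparison of named genes and was the single call among 4730 tested probe sets of no or several genes. Its difference was -2.91 (limma with Benjamini-Hochberg adjustment over those probe sets, adjusted p = 0.0205), and 396 of them had an unadjusted p under 0.05. Its signals were 182 and 186 in undifferentiated cells at 0 mM, 209 and 191 at 20 mM, 89.1 and 105 in embryoid bodies at 0 mM and 14.5 and 13.5 at 20 mM. The embryoid body arrays in ethanol lay below their array median, and those of undifferentiated cells above theirs.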

How the results depend on the processing

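With 2 arrays per group and dim genes near the floor, few single differences can be resolved, and stage cannot be separated from cell line. Of 21 alternatives, the number of genes called was 13 (11 positive) with a filter at the 75th percentile of each array and 31 (20 positive) with a trended and robust variance, and ranged from 0 to 10 when each array was left out in turn. Genes at an unadjusted p under 0.05 numbered 1103 with the probe set of highest SD and 1179 to 2307 with an array left out. Among them the positive share was 52.8% in the reported fit, 41.2% with the 75th percentile filter and 17.5% with median centring. The replicate letters did not pair the arrays (deviations correlated by -0.03 to 0.05), and the replicate block gave 0 calls and 1818 genes at an unadjusted p under 0.05. Across alternatives 52 genes were called at least once.

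The differences of named genes that turned sign were these, and the cause was not tested. With the mean of all probe sets, RTN1 gave -0.050, FZD1 -0.12, TXNRD1 0.42, ATP5PO 0.028, RPS15 0.042, RPS6 0.11 and RFC2 -0.091. Without _x_at and _s_at probe sets, RPS15 gave 0.42, RFC2 -0.56 and ANLN -0.066. With the probe set of highest SD, TGFB2 gave -0.27, FZD1 -1.53, ROR1 -0.033, MTF1 0.083, RPS15 0.42, RFC2 -0.56 and MEG3 -0.38. Quantile normalisation gave CAT 0.017, cyclic loess DNMT1 0.0094, and log2(signal + 32) MMP1 0.72. With each array left out in turn, CAT ranged from -0.65 to 0.42 (highest without replicate B of undifferentiated cells in 0 mM), ALDH2 from -0.22 to 0.050 (highest without replicate B of undifferentiated cells in 20 mM) and DNMT1 from -0.22 to 0.083 (highest without replicate A of embryoid bodies in 0 mM).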
